A study of Rattus norvegicus with 8 samples.

Results

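The 10 genes described here encode the rat machinery that cuts proteins into peptides, moves them into the endoplasmic reticulum and loads them on MHC class I molecules. They were chosen by name, with earlier results of these data known. They are B2m, Tap1, Tap2, Tapbp, Psmb8, Psmb9, Psmb10, Psme1, Psme2 and Nlrc5. All 10 of them were found among the 37209 gene rows of the count table, and all 10 passed the filter on low counts that left 15464 genes to test. Total RNA of whole veins from Sprague Dawley rats was sequenced in 2 groups of 4 libraries. The graft libraries came from veins that had spent 1 week in the left common carotid artery, joined to the divided artery over a cuff at each end. The control libraries came from jugular veins of the side not operated on, in the same rats and at the same time. The labels state neither the rats' age nor whether a library pools animals. Libraries held 10533451 to 16061189 counts in grafts and 5981520 to 14267490 in controls, control 4 being the shallowest.

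MHC class I molecules show peptides from inside a cell to CD8 T cells and to natural killer cells. Interferon makes cells build an immunoproteasome, in which Psmb8, Psmb9 and Psmb10 take the place of the standing catalytic subunits Psmb5, Psmb6 and Psmb7, and a cap of Psme1 and Psme2 that opens the proteasome core. Tap1 and Tap2 pump the peptides into the endoplasmic reticulum, Tapbp (tapasin) holds the pump beside an empty class I molecule, B2m is the light chain of that molecule, and Nlrc5 is the transactivator of class I genes.

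The promoters of these genes are printed first because members that share an interferon-type element can be set beside how each one behaved. RefSeq windows of the GRCr8 assembly, from 250 bases before to 50 bases after the gene's start, were searched on both strands for GAAANNGAAA, the core of the interferon-stimulated response element. The window table matched 9 of the 10 members, the unmatched one being Nlrc5. The element was found in 7 of the 9 windows, against 3.92% of all 33469 windows and 0 of the 5 windows of the standing counterparts Psmb5, Psmb6, Psmb7, Psme3 and Psme4. Each stretch below is the match in capitals with 20 bases on either side, read along the gene's strand. B2m lies on the plus strand at chr3:129549160-129549209. The others are on the minus strand, Tap1 at chr20:4668635-4668684, Tap2 at chr20:4652308-4652357, Tapbp at chr20:4967868-4967923, Psmb8 at chr20:4657006-4657055, Psmb10 at chr19:50743280-50743385 and Psme2 at chr15:33052775-33052824.
B2m: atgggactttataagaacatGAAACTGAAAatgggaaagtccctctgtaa
Tap1: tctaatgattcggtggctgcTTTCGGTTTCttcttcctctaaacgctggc
Tap2: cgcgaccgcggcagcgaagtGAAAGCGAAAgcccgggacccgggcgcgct
Tapbp: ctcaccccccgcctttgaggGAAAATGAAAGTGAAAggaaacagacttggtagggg
Psmb8: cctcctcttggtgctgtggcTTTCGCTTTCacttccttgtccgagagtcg
Psmb10: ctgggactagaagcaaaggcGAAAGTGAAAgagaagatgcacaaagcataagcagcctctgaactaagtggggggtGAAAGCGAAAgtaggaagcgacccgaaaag
Psme2: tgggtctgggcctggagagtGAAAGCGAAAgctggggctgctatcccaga

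The letters GAAAGCGAAA were shared by Psme2, Psmb10 and Tap2, and Psmb8 carried them on the opposite strand. Tapbp held 2 overlapping matches and Psmb10 held 2 separate ones. The windows of Psmb9 and Psme1 held no match. Tap1 and Psmb9 lie head to head on chromosome 20 with starts 457 bases apart, and the Tap1 match lies 336 bases before the start of Psmb9, outside the window searched for Psmb9. Of the members with a match, Tap1, Tapbp, Psmb10 and Psme2 rose in the test below, while B2m, Tap2 and Psmb8 did not pass. Of those without a match in their window, Psmb9 rose and Psme1 did not pass. Tap2 lay close to the lower limit of detection, and a link between a match and a rise was not tested.

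Of 3 other elements searched in the same windows, the GAS element TTCNNNGAA, of the interferon gamma response, was found in 1 member (Psmb8), in 0 of the 5 counterparts and in 8.87% of all windows. The kappa B element GGGANNNNCC was found in B2m, Tap1 and Tapbp, in 1 of the 5 counterparts and in 19.3% of all windows. ATTGG, the Y box of the module through which Nlrc5 acts, was found in B2m, Psmb8 and Psmb9, in 2 of the 5 counterparts and in 37.5% of all windows. Matches of different elements did not overlap each other, and a match is a run of letters and not a shown binding site.

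**Figure D1:**
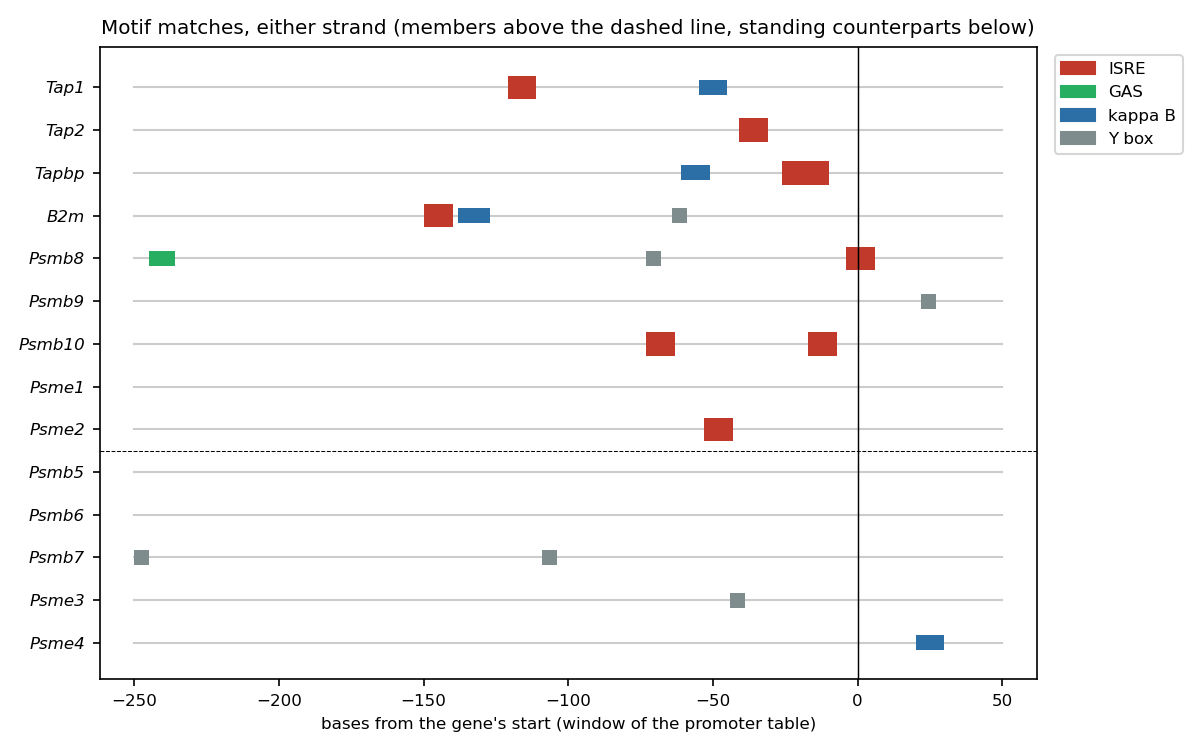
Matches of 4 motifs on either strand in the promoter windows of 9 members (above the dashed line) and of the 5 standing counterparts (below it), plotted by distance in bases from the gene's start. The interferon-stimulated response element appears in 7 of 9 member windows and in 0 of 5 counterpart windows.

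In grafts, 6 of the 10 members rose relative to controls, and 4 did not pass the test. The 6 were the regulator Nlrc5, the transporter chain Tap1, the bridging protein Tapbp, the catalytic subunits Psmb9 and Psmb10, and the cap subunit Psme2, by 1.65-fold to 5.01-fold. No member fell by edgeR, none fell at an unadjusted p under 0.05, and DESeq2 and limma voom called 0 falls as well. Across all 15464 genes, 21.0% rose and 21.3% fell by the same rule (edgeR adjusted p under 0.05). The members' median log2 fold change was 0.92, against 0.01 over all genes tested. For the same 6 members all 4 grafts lay above all 4 controls, which was so for 20.8% of all genes. Levels below are CPM, a library's counts scaled to a common size, and fold changes are log2 of graft over control, with a standard error. The p-values measure the spread between these libraries.

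**Figure D2:**
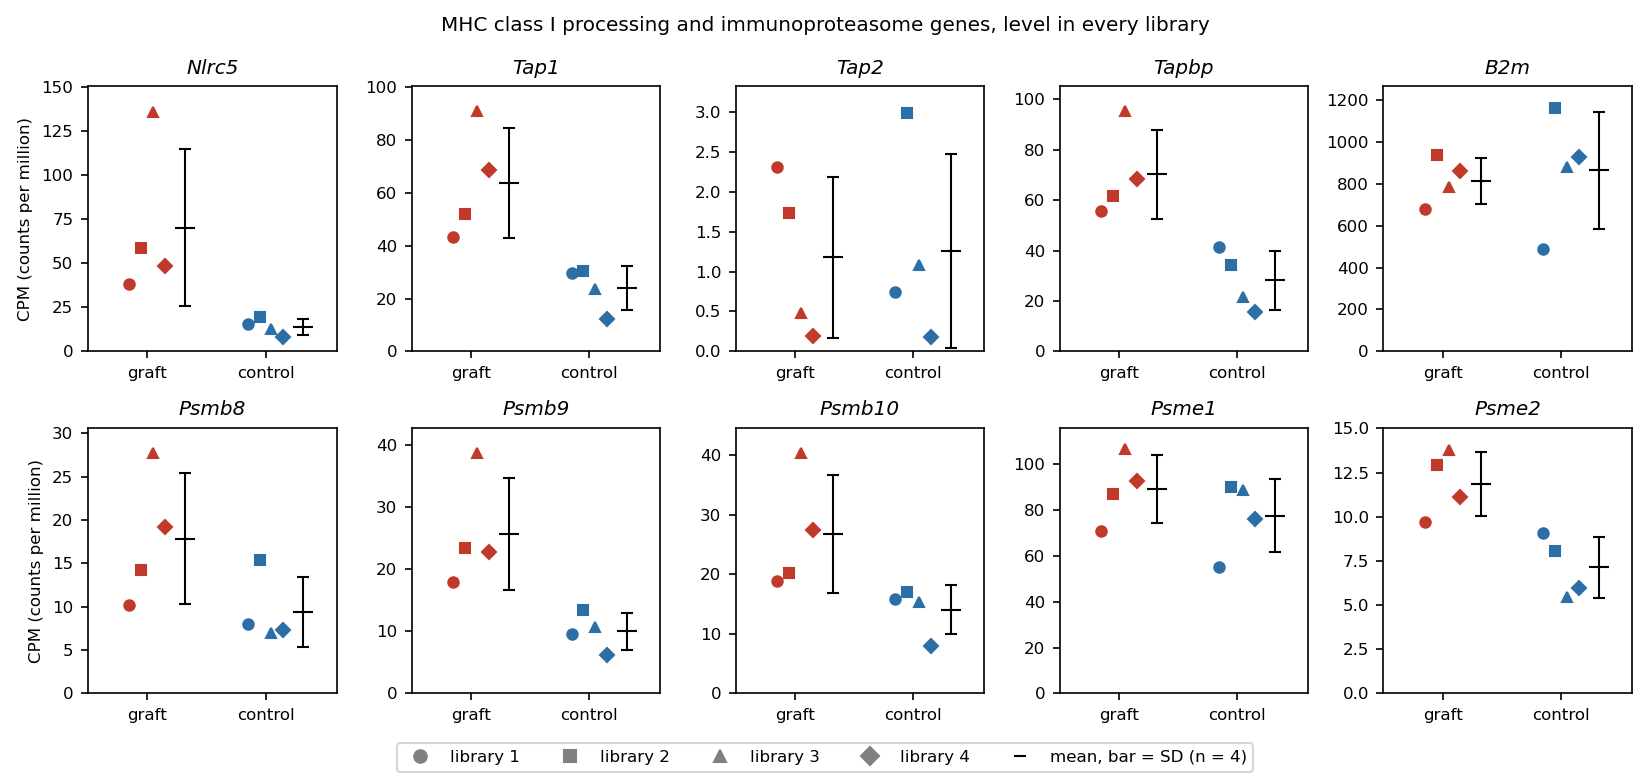
Level of each of the 10 genes in CPM (scaled counts) in every library, 4 grafts on the left and 4 controls on the right of each panel. The groups are apart for Nlrc5, Tap1, Tapbp, Psmb9, Psmb10 and Psme2, and overlap for B2m, Tap2, Psmb8 and Psme1.

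Nlrc5, which in human and mouse cells switches on class I heavy chain, B2m, Tap1 and Psmb9 genes, had the largest fold change among the 10. Its level was 38.4, 58.7, 136 and 48.2 CPM in grafts 1 to 4, against 15.3, 19.3, 12.8 and 8.03 CPM in controls 1 to 4. Every graft lay above every control, and graft 3 stood well above the other grafts. The log2 fold change was 2.33 ± 0.42 (edgeR adjusted p = 0.0019), and 94.7% of all tested genes had a smaller one. In the RefSeq annotation of GRCr8, 2 provisional genes overlap Nlrc5, and the counts cannot be told apart by strand.

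B2m, the light chain that every classical class I molecule needs to leave the endoplasmic reticulum, did not pass the test. Its level was 678, 935, 784 and 860 CPM in grafts, against 487, 1160, 880 and 928 CPM in controls. The groups overlapped, control 1 being the lowest and control 2 the highest of the 8 libraries. The log2 fold change was -0.09 ± 0.24 (edgeR adjusted p = 0.802), and over 16 alternative settings it ran from -0.28 to 0.15. With this standard error a modest change in either direction could be missed, and no test compared B2m with Nlrc5. B2m made up 0.0695% to 0.0975% of all counts in grafts and 0.0456% to 0.105% in controls.

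Some of the class I heavy chains, most of which pair with B2m, rose. Of 32 named rat RT1 class I genes 25 were in the table and 16 were tested, of which 9 rose and 7 did not pass. Among the 9, RT1-M2 had 0, 1, 0 and 0 counts in controls 1 to 4. It reached the low-count filter only in grafts, which favours a rise, and is named after its values were seen. Over all genes tested, 21.0% rose. The median log2 fold change of the 16 was 1.63. RT1-A2, a classical heavy chain, averaged 179 ± 87.3 CPM in grafts and 38.2 ± 9.85 CPM in controls (SD, n = 4 each), a log2 fold change of 2.23 ± 0.32 (edgeR adjusted p = 0.000556). RT1-A1 averaged 70.1 ± 18.9 CPM in grafts and 19.4 ± 6.35 CPM in controls, with a log2 fold change of 1.84 ± 0.27 (edgeR adjusted p = 0.000598). RT1-CE5, of the nonclassical cluster, rose by 1.42 ± 0.28 (edgeR adjusted p = 0.00307). RT1-S3 averaged 155 ± 33.2 CPM in grafts and 92.7 ± 36.2 CPM in controls, and its 0.74 ± 0.28 did not pass (edgeR adjusted p = 0.0605). It passed in 7 of the 16 alternatives, among them DESeq2, limma voom and the fits without graft 1 or without control 2. Reads of RT1 genes are uncertain, because near-identical copies and haplotypes can share or lose them.

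Set against B2m within each library, the counts of RT1-A1 and RT1-A2 together came to 25.0, 20.9, 50.9 and 27.1 per 100 B2m counts in grafts 1 to 4. In controls 1 to 4 they came to 13.9, 5.61, 5.97 and 4.85. Every graft had more heavy chain counts for its B2m counts than any control. All heavy chain rows summed gave 69.0 to 139 per 100 B2m counts in grafts and 20.4 to 59.8 in controls, again with no overlap. These ratios were chosen after the values were seen and carry no test.

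Among the genes of the peptide pump and its bridge, Tap1 and Tapbp rose and Tap2 did not pass. Whether Tap1 and Tap2 differed was not tested. Tap1, one chain of the pump, had 43.3, 52.1, 90.9 and 68.7 CPM in grafts, against 29.5, 30.4, 23.6 and 12.3 CPM in controls. The groups did not overlap, and the rise was 1.40 ± 0.31 on the log2 scale, or 2.64-fold (edgeR adjusted p = 0.00527). Tapbp, which holds the pump against the class I molecule and edits its peptide, had 55.5, 61.7, 95.3 and 68.2 CPM in grafts, against 41.4, 34.2, 21.6 and 15.5 CPM in controls. It rose by 1.31 ± 0.30, or 2.47-fold, again with no overlap (edgeR adjusted p = 0.00647). Both genes were highest in graft 3 and lowest in control 4.

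Tap2, the other chain of the pump, was close to the lower limit of detection. It had 38, 23, 6 and 3 counts in grafts, against 10, 30, 13 and 1 counts in controls. The libraries of either group thus differed among themselves by far more than the groups did. Its log2 fold change of -0.13 ± 0.81 (edgeR adjusted p = 0.913) had a standard error too wide to show a change of the size seen for Tap1. Over the 16 alternatives it ran from -0.68 to 0.70.

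Among the 3 inducible catalytic subunits, Psmb9 (beta 1i) rose most. Its level was 17.9, 23.4, 38.7 and 22.7 CPM in grafts, against 9.59, 13.4, 10.7 and 6.16 CPM in controls. The lowest graft stood above the highest control, and the rise was 1.35 ± 0.29 on the log2 scale, or 2.55-fold (edgeR adjusted p = 0.00477). Psmb10 (beta 2i) had 18.9, 20.2, 40.4 and 27.5 CPM in grafts, against 15.8, 17.0, 15.3 and 8.03 CPM in controls. Its groups were apart by a small margin, and the 0.92 ± 0.30 passed (edgeR adjusted p = 0.0316). Without graft 3, graft 4, control 3 or control 4, one at a time, its edgeR adjusted p was 0.0585 to 0.0776, and without controls 3 and 4 together it was 0.136.

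Psmb8 (beta 5i) had the same fold change as Psmb10, 0.92 ± 0.36, and did not pass (edgeR adjusted p = 0.0623). Its level was 10.2, 14.3, 27.8 and 19.2 CPM in grafts, against 8.02, 15.3, 6.94 and 7.28 CPM in controls. Control 2 lay above grafts 1 and 2, and the other 3 controls lay below all grafts. The edgeR adjusted p was 0.0184 without control 2 and 0.0308 without graft 1, so leaving out 1 library of either group changed the call. With every library kept, Psmb8 also passed by DESeq2 and with library totals alone, so the choice of test and scaling changed it as well.

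The 2 chains of the PA28 cap differed in their calls. Psme2 (PA28 beta) had 9.71, 12.9, 13.8 and 11.1 CPM in grafts, against 9.06, 8.07, 5.44 and 5.97 CPM in controls, and all grafts were above all controls. It rose by 0.73 ± 0.22, or 1.65-fold (edgeR adjusted p = 0.0242). Without graft 2, graft 3, control 3 or control 4, one at a time, the edgeR adjusted p was 0.0566 to 0.0644, and without controls 3 and 4 together it was 0.144.

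Psme1 (PA28 alpha), the partner with which Psme2 forms the ring, had 70.8, 86.7, 107 and 92.6 CPM in grafts, against 55.3, 90.0, 88.4 and 76.2 CPM in controls. The groups overlapped, with a log2 fold change of 0.20 ± 0.18 (edgeR adjusted p = 0.394) and a range of 0.07 to 0.44 over the alternatives. Whether Psme2 changed more than Psme1 was not tested. In the GRCr8 table Psme1 overlaps Emc9, whose reads cannot be told apart from its own without strand.

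**Figure D3:**
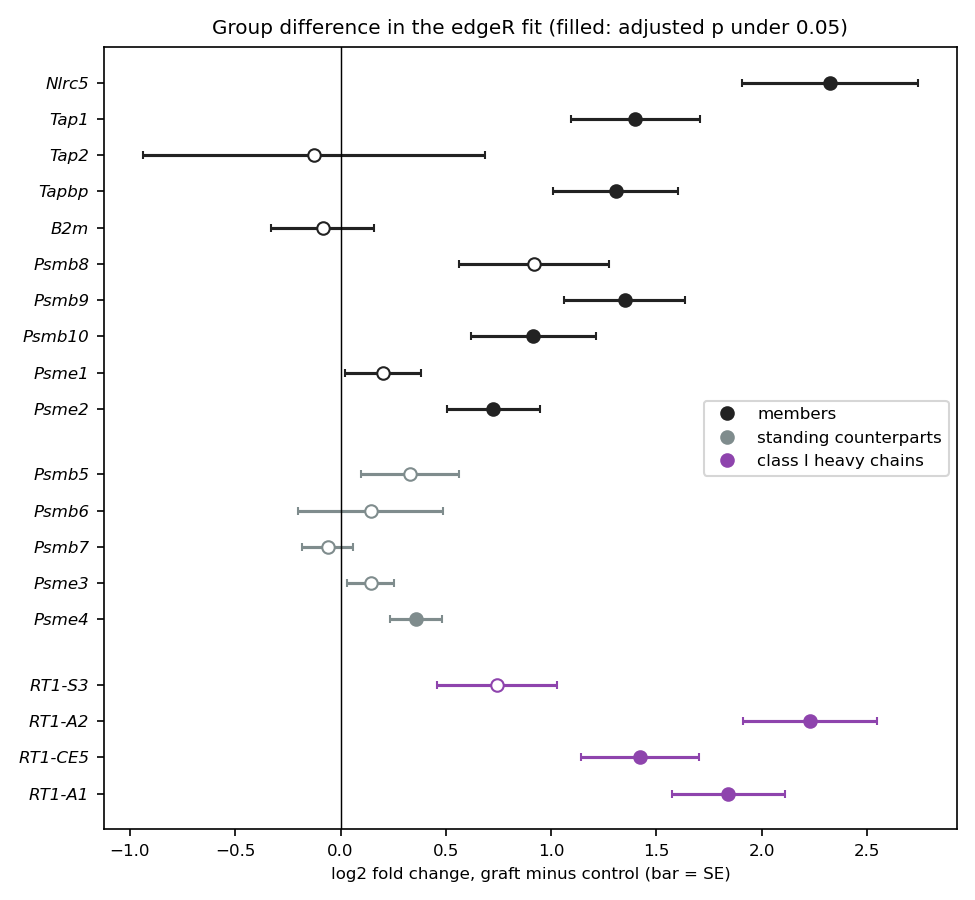
Log2 fold change, graft minus control, with its standard error, filled where the edgeR adjusted p was under 0.05. Shown are the 10 members, the 5 standing counterparts and the 4 most abundant class I heavy chains. Nlrc5 lies farthest to the right at 2.33, while B2m, Tap2, Psmb8, Psme1, 4 of the 5 counterparts and the heavy chain RT1-S3 are open.

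The standing subunits were set beside the inducible ones at the level of RNA. Psmb5, Psmb6 and Psmb7, which hold the constitutive sites, had log2 fold changes of 0.33 ± 0.23, 0.14 ± 0.35 and -0.06 ± 0.12, and none passed (edgeR adjusted p = 0.283, 0.764 and 0.714). Psmb5 passed without control 1. Psme3, the nuclear cap PA28 gamma, had 0.14 ± 0.11 (edgeR adjusted p = 0.327). Psme4, the cap PA200, averaged 339.9 ± 26.4 CPM in grafts and 265 ± 29.1 CPM in controls and rose by 0.36 ± 0.12 (edgeR adjusted p = 0.0404). Its call was lost in 6 of the 8 fits that left out 1 library, all except those without graft 3 or control 4.

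Within each library, where library size and scaling cancel, the log2 ratio of Psmb10 to Psmb7 counts was -0.59, -0.42, 0.50 and -0.08 in grafts, against -0.91, -0.71, -0.79 and -2.08 in controls. All grafts were above all controls, by 0.97 on average (two-sided exact permutation p = 0.0286, the smallest that 4 against 4 can give, and 0.114 after adjustment over 4 ratios). Psmb9 to Psmb6 gave 0.98, 1.75, 2.27 and 1.61 in grafts, against -0.19, 0.86, 1.90 and -0.24 in controls. Control 3 lay among the grafts. Its Psmb6 was 2.84 CPM, against 10.9, 7.37 and 7.28 CPM in controls 1, 2 and 4, while its Psmb9 of 10.7 CPM lay within the range of those controls. The difference of 1.07 did not pass (exact permutation p = 0.171, adjusted 0.343).

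Psmb8 to Psmb5 was -1.77, -1.14, -0.03 and -0.71 in grafts, against -2.29, -0.32, -1.48 and -1.61 in controls. The groups overlapped, control 2 lying above 3 of the 4 grafts (difference 0.51, exact permutation p = 0.4, adjusted 0.486). The ratio of Psme1 and Psme2 together to Psme3 was 0.46 to 0.93 in grafts and 0.31 to 0.89 in controls (difference 0.11, exact permutation p = 0.486, adjusted 0.486). None of the 4 ratios passed after adjustment, and 4 libraries a group could not take the smallest adjusted p of 1 ratio alone below the threshold.

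**Figure D4:**
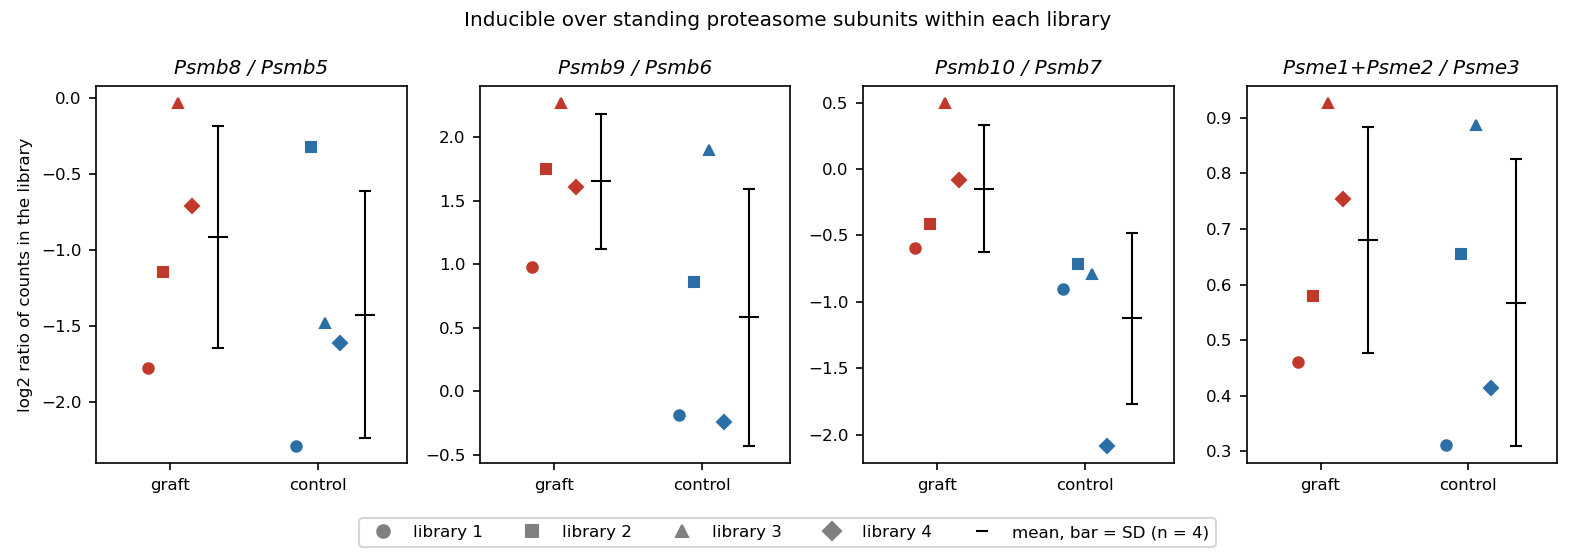
Log2 ratio of inducible to standing proteasome counts in each library, 4 grafts left of 4 controls in each panel. The groups are apart for Psmb10 over Psmb7 and overlap in the other 3 panels.

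Many members had the same highest or lowest library within a group. How many of all genes had that highest or lowest library was not counted, so this is not shown to be particular to the members. Among grafts, graft 3 had the highest level for 8 of the 10 members, the others being Tap2 (graft 1) and B2m (graft 2), and graft 1 had the lowest for 9. Among controls, control 2 was highest for 8 members. Control 4 was lowest for 6, and controls 1 and 3 for 2 each. For the 6 members that rose, the median level over the control mean was 1.80, 2.18, 3.59 and 2.35 in grafts 1 to 4, against 1.18, 1.24, 0.954 and 0.575 in controls 1 to 4. The step between the groups was thus smallest between graft 1 and control 2, and widest between graft 3 and control 4. These 6 members were picked by their rise, so a step between the groups was built in.

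**Figure D5:**
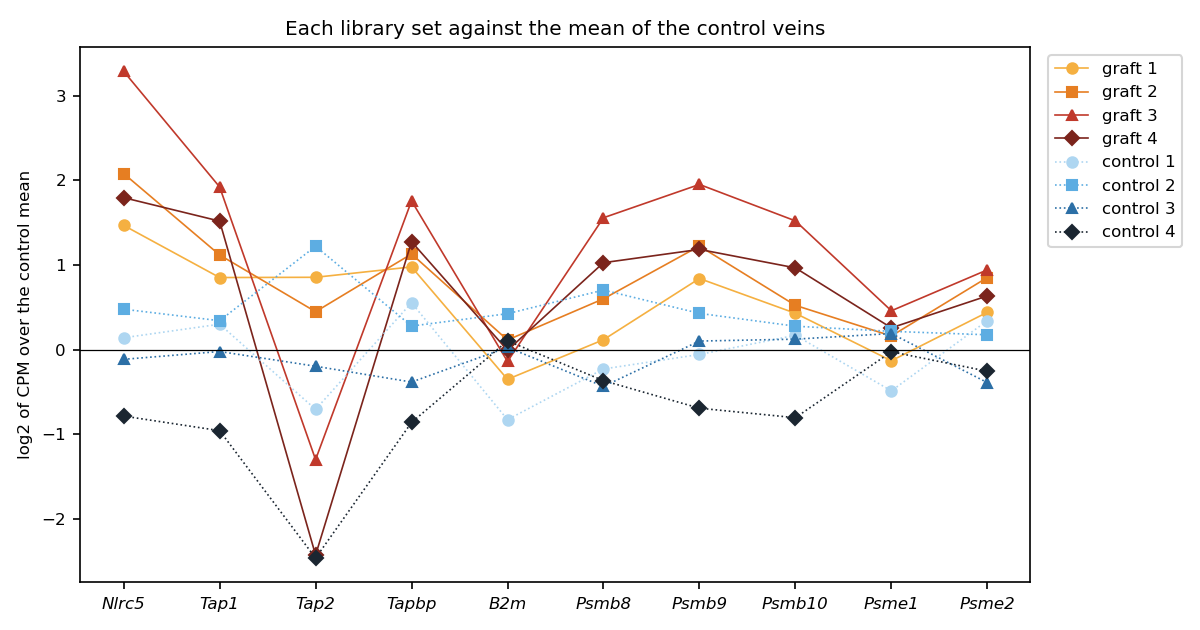
Log2 of each library's level over the control mean for the 10 members, one line per library. The line of graft 3 is the highest graft for 8 members, and graft and control lines cross at B2m, Tap2, Psmb8 and Psme1.

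Leukocyte markers differed between the groups as well. The summed level of 10 T and NK cell markers was 47.1, 63.8, 127 and 67.5 CPM in grafts 1 to 4, against 12.4, 15.7, 6.36 and 3.73 CPM in controls 1 to 4, so graft 3 was the highest and control 4 the lowest. All 8 tested genes of that list rose. Across all genes, 21.0% rose and 21.3% fell. Cd3d (7, 3, 0 and 0 counts in controls 1 to 4) and Nkg7 (9, 0, 0 and 0) reached the low-count filter only in grafts. For such genes, being tested already favours a rise. Klrb1 was not tested, with 1, 6, 12 and 8 counts in grafts 1 to 4 and 0 counts in all controls. All 10 genes of the macrophage list rose, summing to 1315, 2004, 1845 and 2106 CPM in grafts 1 to 4. In controls 1 to 4 they summed to 249, 401, 349 and 239.7 CPM. That list includes Ptprc, which is not particular to macrophages among leukocytes and was 338, 534, 554 and 544 CPM of the graft sums. The sum was highest in graft 4, and graft 3 lay below graft 2, while Ptprc by itself was highest in graft 3. All 8 smooth muscle markers fell (1776 to 3426 CPM in grafts, 12098 to 19906 CPM in controls), as did 7 of 8 adipocyte markers (281 to 702 CPM in grafts, 793 to 4637 CPM in controls). Of 9 endothelial markers 1 rose and 4 fell (1715 to 2017 CPM in grafts, 3252 to 5104 CPM in controls). Vwf was the largest part of the control sums, at 1321 to 3583 CPM, against 393 to 649 CPM in grafts. Eng rose, and Cdh5, Tie1, Kdr and Egfl7 did not pass. Of 3 tested B and plasma cell markers 1 rose. That list of 7 summed to 42.5, 9.99, 29.8 and 57.1 CPM in grafts 1 to 4, against 12.2, 19.8, 6.27 and 1.31 CPM in controls 1 to 4. Leukocytes express class I and immunoproteasome genes strongly; the part of these cell types in the members' rise was not tested. In bulk tissue, more cells of a type and more RNA per cell cannot be told apart.

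The labels' text on RNA extraction names prefrontal cortex, whereas the labelled tissue is vein. Of 10 neuron and glia markers 2 had enough counts to be tested and neither passed. Gad2 and Neurod6 were at 0 in all libraries, and the list summed to 2.55 to 7.76 CPM in grafts and 2.59 to 12.0 CPM in controls.

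The other proteasome genes were counted by the same rule, and no test compared them with the members. Of the 11 remaining subunits of the 20S core, 3 rose and 8 did not pass. Their median log2 fold change was 0.20. Psmb3, a structural beta subunit, rose by 0.86 ± 0.16 (edgeR adjusted p = 0.00227), and Psma7 and Psmb1 were the others, named after their values were seen. Of 18 subunits of the 19S cap, 3 rose and 15 did not pass, around a median of -0.06, beside 21.0% of all genes that rose. Without control 1, 4 of these 19S subunits and 2 of the 20S subunits were called lower. Psmd4, a ubiquitin receptor, rose by 0.46 ± 0.12 (edgeR adjusted p = 0.0121). Psmd2 and Adrm1, named after their values were seen, each lost their call in 6 of the 8 fits that left out 1 library, so the count came down to 1 in 4 of those fits. None of the 4 tested assembly factors passed by edgeR, 0 at an unadjusted p under 0.05. DESeq2 and limma voom called 0 of them, each with 1 rise at an unadjusted p under 0.05. Without control 1, or with library totals alone, 1 was called higher. The most abundant assembly factor, Psmg1, had -0.29 ± 0.15 (edgeR adjusted p = 0.147). Psmg3, named after its values were seen, had 0.98 ± 0.44 (edgeR adjusted p = 0.1), with all grafts above all controls.

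Of 10 genes of peptide trimming, loading and transport across the membrane, 3 rose and 7 did not pass (median 0.14). Over all genes, 21.0% rose. Sec61a1, the channel of the translocon, rose by 0.62 ± 0.13 (edgeR adjusted p = 0.00448). Calr, a chaperone of the loading complex, and Tapbpl, a peptide editor related to Tapbp, rose by 0.49 ± 0.13 and 0.57 ± 0.18 (edgeR adjusted p = 0.0137 and 0.0273) and are named after their values were seen. Without control 1, 2 genes of this list were called lower. Without controls 3 and 4 none of the 3 passed, and Tapbpl alone lost its call without graft 3, graft 4, control 2, control 3 or control 4.

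Of 5 tested genes listed as other partners of B2m or proteins of the class I fold, 1 rose and 1 fell. The shares over all genes were 21.0% and 21.3%. Cd1d1, which pairs with B2m to present lipids, rose by 0.65 ± 0.19 (edgeR adjusted p = 0.02), a call lost without graft 2 or graft 4. Procr, the endothelial protein C receptor, has the class I fold without B2m and fell, with a log2 fold change of -0.97 ± 0.13 (edgeR adjusted p = 0.000469).

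Of the 15 tested regulators of class I and interferon genes, 4 rose and 3 fell, with a median log2 fold change of 0.22. Shares of this size lie near the 21.0% and 21.3% over all genes, and without control 3 the rises came to 2. Irf8, an interferon regulatory factor of myeloid cells, averaged 155 ± 83.5 CPM in grafts and 18 ± 4.11 CPM in controls, and rose by 3.10 ± 0.35 (edgeR adjusted p = 0.000141). Ciita, the class II relative of Nlrc5, rose by 3.21 ± 0.44 (edgeR adjusted p = 0.000414) and is named after its values were seen. Irf1, an interferon regulatory factor that acts on class I and immunoproteasome promoters, had a log2 fold change of 0.46 ± 0.25 and did not pass (edgeR adjusted p = 0.162). Rfx5, through whose complex Nlrc5 reaches DNA, had 0.22 ± 0.12 (edgeR adjusted p = 0.15). Creb1, a factor that binds beside that complex, fell, with a log2 fold change of -0.86 ± 0.12 (edgeR adjusted p = 0.00041).

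Interferon gamma itself (Ifng) had 3, 1, 3 and 0 counts in grafts and 0 counts in every control, where 3 counts correspond to 0.225 to 0.56 CPM, and it was not tested. A difference in Ifng was not detectable at this depth. Of 6 tested interferon receptors and their kinases 4 rose, with a median of 0.54, beside 21.0% of all genes that rose. Ifngr2, the signalling chain of the interferon gamma receptor, averaged 49.8 ± 9.98 CPM in grafts and 17.2 ± 0.763 CPM in controls, and rose by 1.54 ± 0.16 (edgeR adjusted p = 8.97e-05). Of a list of lymphocyte and myeloid receptors, some of which bind class I molecules, all 5 tested rose, beside 21.0% of all genes. They were Cd8a, Cd8b, Klrd1, Klrk1 and Lilrb4, with a median of 3.60. All but Lilrb4 are named after their values were seen. Cd8b, with 0, 6, 1 and 0 counts in controls 1 to 4, reached the low-count filter only in grafts, which favours a rise. Klrk1 binds class I-like stress ligands, and Lilrb4 is an inhibitory receptor of myeloid cells. Lilrb4 had 129.5 ± 29.8 CPM in grafts and 3.06 ± 2.25 CPM in controls. Cd8a, the CD8 coreceptor chain of T cells that binds class I, rose by 2.22 ± 0.40 (edgeR adjusted p = 0.00186).

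The genes most alike to the members' mean profile over the 8 libraries were ranked by the root mean square log2 difference. They were Fam65b at 0.10, Ucp2 at 0.13, Adar at 0.14, Irf9 at 0.19 and Plekho1 at 0.19, among genes averaging at least 10 CPM. The members themselves lay at 0.23 (Psmb10) to 1.13 (Tap2) from that mean, to which each contributes. This is a description over libraries that share the 2 groups, and much of the likeness is the step between them.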

How the data were processed

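Whole-number counts per gene in 8 libraries are the authors' deposited values, in a table of 37209 gene rows. Per the submitters' processing notes, the aligner was HISAT2 2.0.4 and the build Rnor 6.0. Which counter and annotation were used, and whether counting used strand, is not given in the sources here. Groups came from the sample titles. The labels' design speaks of pairs, but titles and source names number the libraries differently, so the main test is unpaired.

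The test was edgeR's quasi-likelihood test (version 4.0.16, R 4.3.3) with TMM scaling. The filterByExpr filter at a minimum count of 10 left 15464 genes, with 99.1% to 99.9% of a library's counts. Adjusted p is Benjamini-Hochberg's across those genes, and the threshold was 0.05. The procedure was tested on simulated data. The standard error is the absolute log2 fold change over the square root of F. CPM uses TMM-scaled library sizes. No library repeated another of its group within sampling noise.

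Ratios within a library used a pseudocount of 0.5 and a two-sided exact permutation test over 70 splits, adjusted over 4 ratios. Alternatives were other scalings, no filter, limma 3.58.1 voom, DESeq2 1.42.0, a replicate block, another pseudocount and libraries left out. The 10 members and the gene lists were chosen with earlier results of these data known. Named genes were the members, their standing counterparts and, of each other list, the smallest p in each direction or, where none passed, the most abundant gene. The 4 most abundant RT1 rows, Irf1 and Rfx5 were added, and 1 further gene is not reported here. Promoters came from the RefSeq GRCr8 table, matched by symbol. Levels of different genes were not compared, because no transcript lengths were used.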

Additional observations from a re-analysis of the deposited data

Results flagged for a closer look

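In controls, the level of Psmb8 in control 2 was 15.3 CPM, far from the other 3 controls at 6.94 to 8.02 CPM, a gap of 0.872 of the group's range. The log2 ratio of Psmb10 to Psmb7 in control 4 was -2.08, far below the other 3 controls at -0.91 to -0.71, a gap of 0.860 of the range. In all, 28 sets of 4 values were examined in this way, and chance alone sets 1 library apart in about 1 of 20 such sets.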

How the results depend on the processing

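Over 16 alternatives, Nlrc5, Tap1, Tapbp and Psmb9 passed in all 16, Psmb10 and Psme2 in 10, Psmb8 in 4, and B2m, Tap2 and Psme1 in 0. The number of members that rose was 4 to 7 with 1 library left out, 6 with RLE or upper-quartile factors, without the filter or with limma voom, 7 with DESeq2 or library totals alone, and 4 without controls 3 and 4. No member was called lower in any of the 16. With library totals alone 2164 genes fell and 4558 rose, so 67.8% of calls were rises against 49.7% with TMM, and the median of all genes was 0.23. Class I heavy chains had 14 rises and 1 fall with DESeq2, which tests more genes, against 9 and 0 with edgeR. The call of Adar was lost in 6 of the 8 fits that left out 1 library. Leaving out 1 library at a time, the difference of Psmb8 to Psmb5 ran from 0.22 to 0.88, Psmb9 to Psmb6 from 0.80 to 1.51, Psmb10 to Psmb7 from 0.65 to 1.12 and the PA28 ratio from 0.03 to 0.22.

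Same-numbered grafts and controls deviated together only weakly (correlations of -0.07, 0.18, 0.07 and 0.05), and 1 of 4 grafts was closest to its own number, so the numbers were not taken to pair the libraries. With the replicate block 3042 genes rose and 2860 fell, and 4 members rose, Psmb10 and Psme2 having an edgeR adjusted p of 0.0538 and 0.0565. The block gave an exact sign-flip p of 0.125 for Psmb10 to Psmb7, the smallest that 4 pairs allow. Tap2 had 1 to 38 counts a library, and control 4 held fewer counts than any other library.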
